A study of Mus musculus with 4 samples.

Results

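The Frizzled receptors are the cell-surface proteins to which Wnt ligands bind. All rows of the deposited expression table whose upper-case gene identifier was FZD1 to FZD10 were taken, which gave 10 receptors among 29871 genes. The family as a whole was chosen by name, and it was selected on earlier sight of the control and PAF knockout FPKM of these same libraries. The values below therefore describe the receptors, and no test of that comparison is given for a single receptor.

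A Frizzled receptor has a cysteine-rich domain outside the cell that holds the lipid-modified Wnt, and a bundle of membrane-spanning helices that passes the signal to Dishevelled inside. With the co-receptors LRP5 and LRP6 it stops the destruction of beta-catenin, and without them it feeds branches that act on cell polarity and calcium. In the intestine, Wnt signals maintain the crypt stem cells, and the ubiquitin ligases RNF43 and ZNRF3 remove Frizzled receptors from the surface of those cells. APC acts further down, in the complex that destroys beta-catenin.

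RNA came from adenomas of the mouse small intestine. Control mice had the genotype APC Min/+, in which one Apc allele carries the truncating Min mutation. PAF knockout mice had the genotype PAF KO; APC Min/+, so both groups carried the Apc allele and the groups differed in PAF alone, as far as the labels go. Each group had 2 libraries, and the labels give no strain, age, sex or number of animals. From what is known of the study, PAF is the PCNA-associated factor, a partner of the DNA replication clamp that the gene Pclaf encodes. Levels are FPKM, fragments per kilobase of transcript, scaled to the mapped fragments of the library.

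The row of the PAF gene, listed under an older RIKEN name, read 17.9 and 17.8 FPKM in control libraries against 4.13 and 11.4 in knockout libraries, so transcript was present in every library. The labels do not say which part of the gene was deleted, and this row therefore does not check them. Knockout library 2 stood apart from the rest in several ways. It was the only library with more than traces of the female transcript XIST, at 46.4 FPKM, and it listed the Y-linked EIF2S3Y at 0 where the others had at least 25.98 FPKM, so the knockout libraries came from mice of different sex. Its 8 smooth muscle markers summed to 734 FPKM, against 191 to 203 in the other libraries. The epithelial markers that define the tissue were high in every library, with sums of 6656 to 7900 FPKM. Depth, estimated from the step between the lowest values, was about 12900000 and 17400000 in control libraries and about 15400000 and 23800000 fragments in knockout libraries. Every receptor then rested on about 59 fragments or more per library, with FZD9 the thinnest at 59 to 86.

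The promoters of FZD10 and FZD5 are printed here because FZD10 differed most between the groups and FZD5 was the receptor that read higher in both knockout libraries. Each run is the RefSeq window from 250 bases before the start site to 50 bases after it, in build GRCm38.p6, 5′ to 3′ on the strand of the gene. FZD10 lies at chr5:128600856-128601155 on the plus strand and FZD5 at chr1:64737701-64738000 on the minus strand. Capitals mark CTTTG or its reverse complement CAAAG, the core of the motif that TCF and LEF factors, the nuclear partners of beta-catenin, bind.
FZD10: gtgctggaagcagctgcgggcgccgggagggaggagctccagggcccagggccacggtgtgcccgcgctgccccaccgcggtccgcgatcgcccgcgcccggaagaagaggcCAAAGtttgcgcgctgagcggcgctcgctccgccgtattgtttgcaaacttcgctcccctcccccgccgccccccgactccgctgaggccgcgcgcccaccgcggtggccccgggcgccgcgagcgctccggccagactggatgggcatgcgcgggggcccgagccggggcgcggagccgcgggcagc
FZD5: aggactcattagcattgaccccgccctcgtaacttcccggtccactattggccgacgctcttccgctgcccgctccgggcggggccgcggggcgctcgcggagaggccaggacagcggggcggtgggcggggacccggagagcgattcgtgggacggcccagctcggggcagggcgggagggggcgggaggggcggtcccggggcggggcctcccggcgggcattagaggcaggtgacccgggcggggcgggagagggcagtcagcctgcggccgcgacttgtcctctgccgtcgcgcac

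The FZD10 window held the core once, on the reverse strand, with its first base 138 bases before the start site, and the FZD5 window did not hold these letters. RefSeq windows were at hand for 6 of the 10 receptors, FZD1, FZD4, FZD5, FZD7, FZD9 and FZD10. The core was found in 3 of them, FZD1, FZD7 and FZD10, and in 53.9% of all 32851 windows of 300 bases. Longer forms are rarer. CTTTGA, which contains the core, was in the FZD1 window alone of the 6 and in 5257 of all windows, and CTTTGAT was in none of the 6 and in 3.73% of all. The FZD10 and FZD5 windows were 77.7% and 75.7% G and C, against a median of 52.7% over all windows. These matches are a description of the letters and not of binding.

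FZD10 was the most abundant Frizzled transcript of the control adenomas and was lower in both knockout libraries. It is known as an antibody target in human synovial sarcoma. It read 40.4 and 40.2 FPKM in control libraries against 4.44 and 5.997 in knockout libraries. The controls were nearly equal, and the knockout libraries held 11.0% and 14.9% of the control mean. As means, 40.3 ± 0.109 FPKM (SD, n = 2) stood against 5.22 ± 1.10 FPKM (SD, n = 2), a 7.73-fold difference in level. On the log2(FPKM + 1) scale, where low genes appear to change less than they do, the difference was -2.74 (SE 0.197), with -2.93 and -2.56 in the first and second knockout library. About 1698 and 2272 fragments lay behind the control values and about 222 and 464 behind the knockout values. Of the 13716 rows that averaged 1 FPKM or more, which are called tested rows here, 99 had a log2 difference at or below that of FZD10. Among the 2450 tested rows with a control mean of at least that of FZD10, 78 were at or below it. In bulk RNA, fewer cells that carry a transcript and less of it per cell cannot be told apart.

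The row next to FZD10 in the genome was also lower. Fzd10os, the opposite-strand transcript that neighbours Fzd10 in RefSeq and stands in the table under an older RIKEN name, read 6.26 and 12.1 FPKM in control libraries against 2.54 and 2.003 in knockout libraries. It was chosen after its values were seen. Their RefSeq spans do not overlap, and whether the counting used strand is not stated.

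**Figure D1:**
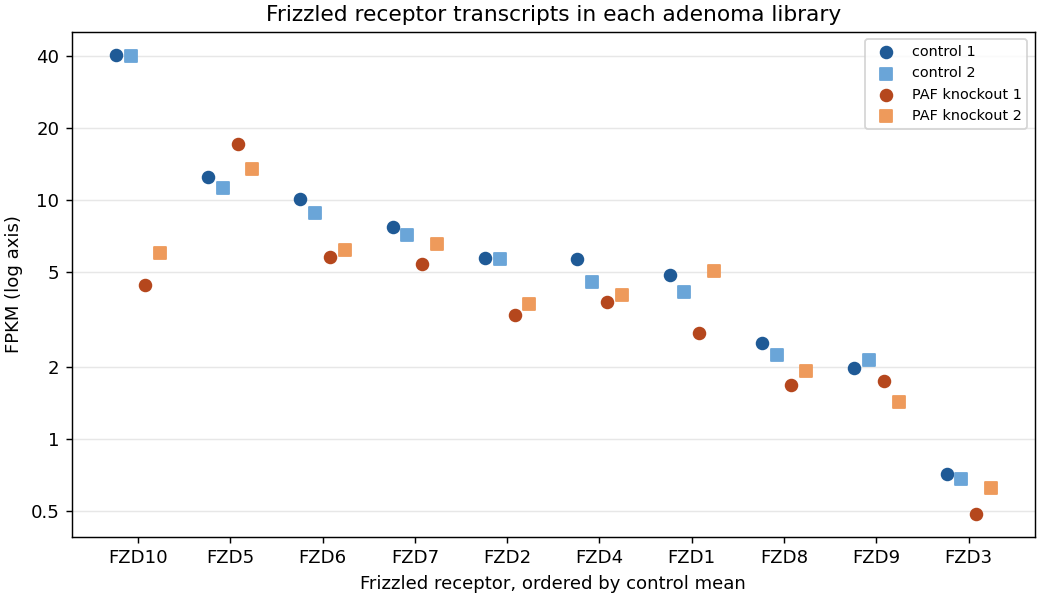
FPKM of the 10 Frizzled receptors in each of the 4 libraries, on a log axis, with receptors ordered by control mean; each point is 1 library. FZD10 sits at 40.4 and 40.2 FPKM in control libraries against 4.44 and 5.997 in knockout libraries, and FZD5 is highest in knockout library 1.

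Summed over the 10 receptors, Frizzled transcripts came to 92.3 and 86.8 FPKM in control libraries against 46.5 and 49.0 in knockout libraries. The knockout mean of the sum was 53.3% of the control mean, and the groups did not overlap. FZD10 made up 35.1 of the 41.8 FPKM by which the group means differed, or 83.9%. Without FZD10 the other 9 receptors summed to 51.9 and 46.6 FPKM in control libraries against 42.04 and 42.96 in knockout libraries, and the knockout mean was 86.3% of the control mean. With 2 libraries against 2, the smallest two-sided p that an exact permutation test of a single value can give is 0.333, and none is given.

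The make-up of the family differed as well. FZD10 held 43.7% and 46.3% of the summed FPKM in control libraries against 9.54% and 12.2% in knockout libraries, a difference of -34.1 percentage points between the means. FZD5 held 13.6% and 12.9% in control libraries against 36.9% and 27.5% in knockout libraries, a difference of 18.99 points, and was the leading receptor of both knockout libraries. A share is not altered by rescaling a library. The shares of the other 8 receptors were each higher in the knockout mean, by 0.382 points for FZD3 to 4.23 points for FZD7, as shares add up to a fixed total. To reach 50 percent of the sum took 2 receptors in each control library and 3 in each knockout library.

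With FZD10 taken out of the sum, the pattern of shares was different. FZD5 held 24.2% and 24.1% of the remaining 9-receptor sum in control libraries against 40.8% and 31.4% in knockout libraries. FZD6 held 19.5% and 19.0% against 13.7% and 14.3%, and FZD2 held 11.0% and 12.2% against 7.84% and 8.53%. For FZD7 these shares were 14.9% and 15.3% against 12.8% and 15.3%, and for FZD1 9.40% and 8.85% against 6.63% and 11.8%, so the groups overlapped in both.

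**Figure D2:**
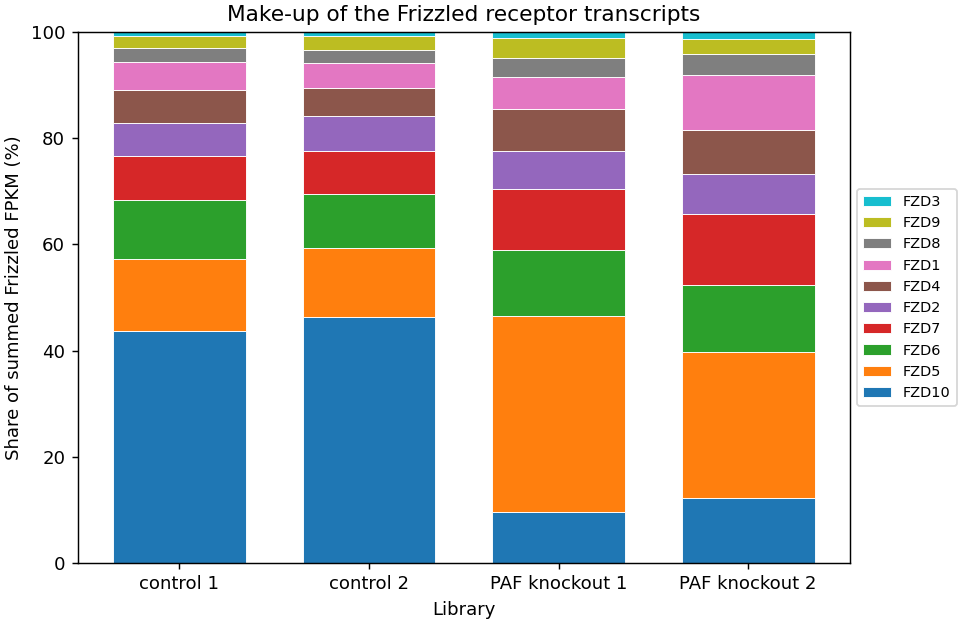
Share of each receptor in the summed Frizzled FPKM of a library, in percent, as stacked bars that add to the whole; 1 bar per library. The FZD10 segment takes 43.7% and 46.3% of the control bars and 9.54% and 12.2% of the knockout bars, where the FZD5 segment is the largest.

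FZD5 and FZD8 are close relatives. FZD5 is expressed in the crypt epithelium and in mice is needed for the maturation of Paneth cells, the antimicrobial cells of the crypt base. FZD5 read 12.5 and 11.2 FPKM in control libraries against 17.2 and 13.5 in knockout libraries. It was higher in both knockout libraries, at 145% and 114% of the control mean, with a log2 difference of 0.34 (SE 0.196). The gap between knockout library 2 and the higher control was small beside the spread within the knockout group. FZD8 read 2.52 and 2.24 FPKM in control libraries against 1.68 and 1.93 in knockout libraries, a log2 difference of -0.27 (SE 0.203). The relatives thus differed in direction, and their sum was 15.1 and 13.5 FPKM against 18.8 and 15.4 FPKM.

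Paneth cell markers differed among themselves. The 5 listed markers in the table summed to 3375 and 3641 FPKM in control libraries, against 2644 in the first knockout library and 7016 in the second. ANG4, an antimicrobial angiogenin, read 393 and 451 FPKM in control libraries, against 103 in the first knockout library and 3248 in the second. PLA2G2A, a secreted phospholipase, read 1057 and 1260 FPKM against 967 and 399, and was thus higher in knockout library 1 than in library 2, as FZD5 was. LYZ1, the Paneth lysozyme, read 980 and 1005 FPKM against 1006 and 1406. MMP7 read 652 and 632 FPKM against 287 and 968, and ITLN1 read 295 and 294 FPKM against 281 and 995. All of these markers but PLA2G2A were thus lower in knockout library 1 than in library 2, unlike FZD5. The part of the Paneth cell markers in the FZD5 value was not tested.

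FZD1, FZD2 and FZD7 form another subgroup of close relatives. FZD7 is known in mice as a receptor through which intestinal stem cells receive Wnt. It read 7.71 and 7.13 FPKM in control libraries against 5.39 and 6.58 in knockout libraries, a log2 difference of -0.27 (SE 0.183). Both knockout values lay below both controls, with knockout library 2 at 88.7% of the control mean. FZD2, a receptor that also takes signals from non-canonical Wnts such as WNT5A, read 5.73 and 5.69 FPKM in control libraries against 3.29 and 3.67 in knockout libraries. Its groups were well separated, at 57.7% and 64.2% of the control mean, and the log2 difference was -0.58 (SE 0.170). FZD1 read 4.88 and 4.12 FPKM in control libraries, against 2.79 in the first knockout library and 5.07 in the second. Its groups overlapped, and its difference was -0.54 in the former knockout library and 0.15 in the latter. Fibroblast markers summed to 292 and 293 FPKM in control libraries, against 354 in the first knockout library and 727 in the second, the library in which FZD1 read highest. COL1A1, the first of the 8 fibroblast markers, read 57.4 and 57.9 FPKM against 81.7 and 92.3. Their part in the FZD1 value was not tested.

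FZD3 and FZD6 are the receptors best known for planar cell polarity, FZD6 for the orientation of hair in mice and FZD3 for axon guidance. FZD6 read 10.1 and 8.85 FPKM in control libraries against 5.76 and 6.17 in knockout libraries. The knockout libraries lay close together at 60.6% and 64.9% of the control mean, with a log2 difference of -0.59 (SE 0.169). FZD3 was the least abundant receptor, at 0.714 and 0.682 FPKM in control libraries against 0.488 and 0.624 in knockout libraries. It was below the 1 FPKM mean needed to enter the test, and its transcript is long, so that about 96 to 189 fragments still lay behind each value.

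FZD4, the receptor for Norrin as well as for Wnts and best known from blood vessels of the retina, read 5.69 and 4.53 FPKM in control libraries against 3.73 and 4.01 in knockout libraries. The gap between the groups was smaller than that between the controls, and the log2 difference was -0.32 (SE 0.195). Endothelial markers, for comparison, summed to 62.5 and 62.8 FPKM in control libraries against 74.4 and 85.7 in knockout libraries. Of the 8, 6 were higher in both knockout libraries, as were 21.5% of tested rows, CDH5 was lower and CLDN5 overlapped. PECAM1 read 12.3 and 12.4 FPKM against 16.2 and 29.5, and CDH5 26.3 and 27.6 FPKM against 25.9 and 12.4. FZD9, the closest relative of FZD10, read 1.99 and 2.15 FPKM in control libraries against 1.74 and 1.43 in knockout libraries, a log2 difference of -0.25 (SE 0.210). FZD9 thus held 84.4% and 69.1% of its control mean where FZD10 held 11.0% and 14.9%.

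**Figure D3:**
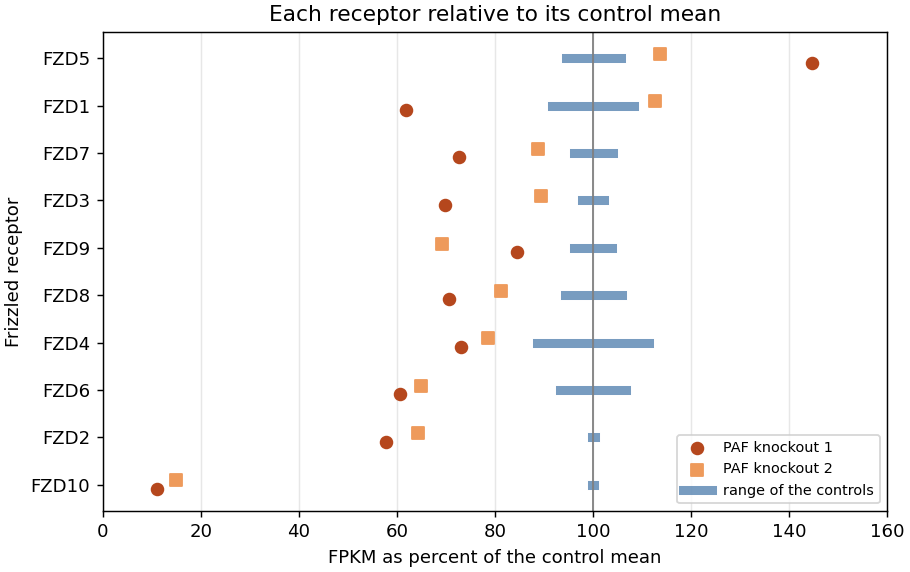
FPKM of each receptor in the 2 knockout libraries as a percent of its control mean, with a bar for the range of the 2 controls. FZD10 lies at 11.0% and 14.9%, FZD2 and FZD6 between 57.7% and 64.9%, and FZD5 at 145% and 114%.

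Counted over the family, 8 of the 10 receptors were lower in both knockout libraries than in both controls, 1 was higher and 1 overlapped. Among the 13716 tested rows, 30.2% were lower in this sense and 21.5% were higher. Of the 9 tested receptors, 7 were lower, and FZD3 is the eighth. Only FZD10 of the 9 had a log2 difference of -1 or below, as did 5.85% of tested rows. With limma and Benjamini-Hochberg adjustment over all tested rows at 0.05, 0 of the 9 tested receptors were called, beside 0.0729% of tested rows. At an unadjusted limma p under 0.05 there were 3 of the 9, and 1810 of the 13716 rows. Nothing is read from these counts about the receptors, since the comparison was known when they were chosen.

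Each knockout library was also shifted a little over all rows. The median log2 difference over tested rows was -0.11 in the first knockout library and 0.09 in the second, and 8 of the 10 receptors were lower in the former library than in the latter. FZD5 and FZD9 were the exceptions. Leaving out knockout library 2 put 9 of the 10 receptors below both controls, with 56.2% of tested rows, and leaving out knockout library 1 put 8 there, with 41.7% of tested rows.

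The order of the levels differed between the groups. In the controls FZD10, FZD5, FZD6, FZD7 and FZD2 followed each other with no overlap between neighbours, FZD2, FZD4 and FZD1 overlapped in turn, and FZD8, FZD9 and FZD3 followed separately. In the knockouts FZD5 came first, with its lower value of 13.5 FPKM above the 6.58 FPKM that FZD7 reached. FZD7, FZD6, FZD10, FZD1 and FZD4 then overlapped from neighbour to neighbour, so neighbours could not be put in order. FZD7 and FZD6, at 5.39 FPKM or more, did lie above FZD1 and FZD4, at 5.07 FPKM or less. FZD10, at 4.44 FPKM or more, lay above FZD4, at 4.01 FPKM or less. By mean, FZD2, FZD8, FZD9 and FZD3 came last, with FZD8 and FZD9 overlapping. FZD2 lay below FZD4 but within the range of FZD1, at 3.29 and 3.67 FPKM against 2.79 and 5.07.

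Among 11147 other tested protein-coding rows, the profiles closest to FZD10 over the 4 libraries were those of CUBN, TBX1 and HOXB8. Likeness was the distance between centred log2(FPKM + 1) profiles, which was 0.122, 0.158 and 0.293. CUBN, which takes up vitamin B12 in the distal small intestine, read 12.9 and 13.02 FPKM in control libraries against 0.875 and 1.62 in knockout libraries. TBX1, a T-box transcription factor, read 37.9 and 33.7 FPKM against 3.41 and 5.15, and HOXB8, a homeobox factor of the posterior body, 7.82 and 7.84 FPKM against 0.318 and 0.909. The 3 rows closest to FZD5 were DOLPP1, ABAT and PEX11A, at distances of 0.0393, 0.0411 and 0.0484. With 4 libraries many rows can look alike by this measure.

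Genes that act with the receptors were taken from 8 lists of 88 genes, of which 57 were tested. By limma 0 of the 57 were called in either direction after adjustment over all tested rows, beside 0.0729% of tested rows. At an unadjusted limma p under 0.05 there were 22 of the 57, beside 1810 of the 13716 tested rows. In all, 36 were lower in both knockout libraries than in both controls and 6 were higher, beside 30.2% and 21.5% of tested rows. Nothing is read from these counts, or from those of single lists below, since the lists were chosen with earlier results of these data known.

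Among the ligands, 7 of 19 Wnt genes were tested, with a median log2 difference of -0.28 against 0.0035 over all tested rows. WNT10A read 3.37 and 2.68 FPKM in control libraries against 0.541 and 0.691 in knockout libraries, and WNT6 had a log2 difference of -1.84 (SE 0.177). WNT5A, the main non-canonical ligand, read 7.54 and 7.84 FPKM against 9.32 and 13.7. The other ligands, Norrin and the R-spondins, had 1 tested gene of 5. This was RSPO3, at 0.251 and 0.142 FPKM in control libraries, against 0.569 in the first knockout library and 3.16 in the second.

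The co-receptors and partners had a median of -0.38 over 8 tested genes of 11. LRP6 read 12.04 and 11.99 FPKM in control libraries against 9.68 and 14.2 in knockout libraries, so its groups overlapped. LRP5 read 87.1 and 89.0 FPKM in control libraries, against 82.2 in the first knockout library and 35.9 in the second. Lower in both knockout libraries were PTK7, a pseudokinase that acts in planar polarity, at 55.8 and 52.2 FPKM against 17.5 and 19.9, and ROR2, a WNT5A receptor, at 10.9 and 11.0 FPKM against 6.89 and 5.68. TPBG, a membrane protein that modulates LRP6, read 4.07 and 4.10 FPKM against 2.26 and 2.41. PTK7 had a limma adjusted p of 0.203 and a log2 difference of -1.48 (SE 0.164).

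Regulators of receptor turnover had a median of -0.035 over 9 tested genes of 11, but the ligases that remove Frizzled receptors were lower in both knockout libraries. RNF43 read 89.8 and 88.1 FPKM in control libraries against 40.9 and 44.2 in knockout libraries, a log2 difference of -1.05 (SE 0.158). ZNRF3 read 23.34 and 23.34 FPKM against 9.39 and 10.3, a difference of -1.17 (SE 0.153). The limma adjusted p was 0.238 for RNF43 and 0.235 for ZNRF3. APCDD1, a membrane inhibitor of Wnt receptors, had a log2 difference of -1.48 (SE 0.148). The list of secreted antagonists, which also held the membrane receptors KREMEN1 and KREMEN2, had a median of -0.80 over 6 tested genes of 12. DKK3 read 56.8 and 55.5 FPKM against 30.7 and 29.5, KREMEN1, a receptor for Dickkopf proteins, 12.2 and 11.3 FPKM against 6.50 and 6.89, and WIF1, which binds Wnts outside the cell, 322 and 316 FPKM against 65.3 and 71.3, a log2 difference of -2.21 (SE 0.171). SFRP1, a secreted Frizzled-related protein that binds Wnts, was the 1 tested antagonist that read higher in both knockout libraries, at 3.35 and 3.54 FPKM against 7.01 and 16.7, a log2 difference of 1.42.

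Inside the cell, the 15 tested transducers had a median of -0.37, and 12 were lower in both knockout libraries, beside 30.2% of tested rows. Among the Dishevelled proteins, which bind the Frizzled tail, DVL2 read 5.99 and 7.43 FPKM against 3.02 and 2.88, DVL3 25.5 and 26.3 FPKM against 16.05 and 11.99, and DVL1 27.8 and 27.5 FPKM against 26.2 and 19.3. CSNK1E, a casein kinase that acts on Dishevelled, and AXIN2, a feedback inhibitor, had log2 differences of -1.06 (SE 0.220) and -1.73 (SE 0.287). Of the planar polarity genes, 9 of 10 tested were lower in both knockout libraries, beside the same 30.2% of tested rows, with a median of -0.59. VANGL2 read 9.21 and 8.70 FPKM against 2.91 and 3.49, CELSR1 16.1 and 15.0 FPKM against 6.81 and 7.32, and CELSR2 3.66 and 3.82 FPKM against 2.16 and 2.13. SMO, the Hedgehog transducer that shares the Frizzled fold, read 16.6 and 15.0 FPKM in control libraries against 8.39 and 11.8 in knockout libraries.

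**Figure D4:**
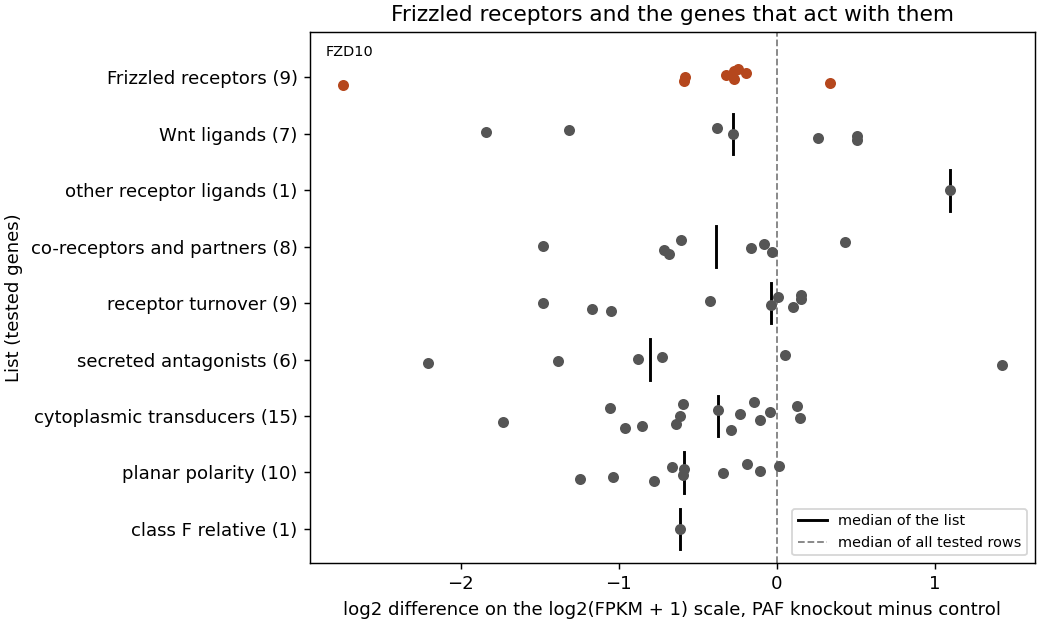
Log2 difference, PAF knockout minus control on the log2(FPKM + 1) scale, of each tested Frizzled receptor and of each tested gene in the 8 lists, with list medians as black ticks and the median of all tested rows as a dashed line. FZD10, at -2.74, lies left of every gene plotted, and WIF1 follows at -2.21.

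Sums of cell type markers differed in several directions beside these results. Summed neutrophil markers read 18.6 and 30.2 FPKM in control libraries against 165 and 112 in knockout libraries. Mast cell markers read 2859 and 3253 FPKM against 1433 and 1188. Most of this sum came from MCPT1, at 1461 and 1685 FPKM against 760 and 555, and MCPT2, at 972 and 1105 FPKM against 487 and 460. Lower in both knockout libraries were 6 of the 8 mast cell markers, beside 30.2% of tested rows, and KIT and FCER1A overlapped. KIT read 10.2 and 10.3 FPKM against 9.14 and 11.2, and FCER1A 16.4 and 16.8 FPKM against 8.91 and 18.02. Of the 8 epithelial markers, 2 were lower in both knockout libraries, 2 were higher and the others overlapped. Among tested rows, 30.2% were lower and 21.5% were higher. EPCAM read 1006 and 946 FPKM against 945 and 1342, and CDH1 read 334 and 325 FPKM against 283 and 289. The keratins KRT8 and KRT19 were the higher ones, at 1305 and 1230 FPKM against 1438 and 1767, and at 1855 and 1988 FPKM against 2715 and 2372. Macrophage markers were at 156 and 150 FPKM in control libraries, against 138 in the first knockout library and 297 in the second. Of the 8 macrophage markers, 1 was lower in both knockout libraries, 2 were higher and the others overlapped, beside the same 30.2% and 21.5%. CD68, the lower one, read 16.6 and 19.1 FPKM against 12.1 and 10.5, and LYZ2, a higher one, 51.5 and 44.5 FPKM against 56.1 and 157. T and NK cell markers were at 21.3 and 24.0 FPKM against 12.01 and 20.3. Markers of neurons and glia were low, with sums of 8.60 to 19.4 FPKM and ELAVL4 listed at 0 in control library 1. The table held all 8 markers of each of these lists, other than 7 of 8 for neutrophils, where MPO and ELANE were at 0.192 FPKM or below. The part of these cells in the receptor values was not tested.

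**Figure D5:**
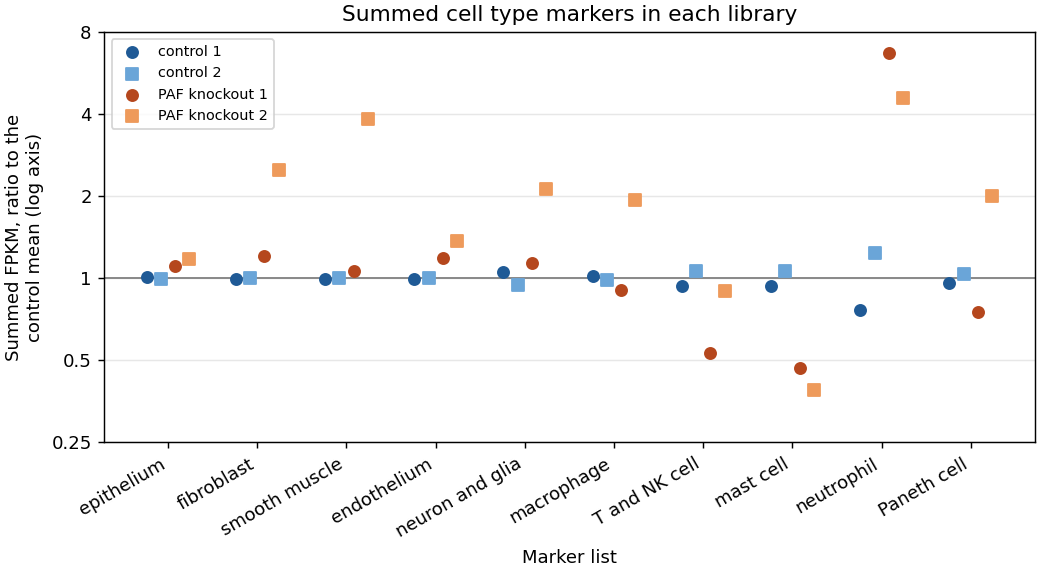
Summed FPKM of each marker list as a ratio to its control mean, on a log axis, with 1 point per library. Epithelial sums lie near 1 in all libraries, smooth muscle and fibroblast sums stand at 3.84 and 2.49 in knockout library 2, and neutrophil sums at 6.74 and 4.601 in the knockout libraries.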

How the data were processed

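RNA of small-intestinal adenomas was measured in 4 libraries, 2 per group. The authors deposited FPKM values, 1 column for each library. The submitters' processing notes name TopHat2, Cuffdiff and build mm9; versions and settings are not stated in the labels used here. Of 29955 rows, 84 repeats of a symbol were dropped, keeping the row of higher mean. The 13716 rows that averaged 1 FPKM or more were fitted on log2(FPKM + 1) by limma (3.58.1; R 4.3.3), with a variance trend and Benjamini-Hochberg adjustment, and called at 0.05. SEs come from this fit, that of FZD3 from the fit without a filter. The labels do not state that the libraries of a group came from separate animals. Sex-linked transcripts showed that the knockout libraries came from mice of different sex, and nothing shows separate animals for the controls. The p-values thus measure the spread between these samples, which includes sex in the knockout group and may be technical in the controls.

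Depth was estimated from the commonest low product of FPKM and length over 1-transcript genes of at least 1000 bases. Fragments per receptor use this and the longest GENCODE M21 transcript (GRCm38), and are approximate. Promoters came from RefSeq GRCm38.p6, matched by symbol; RefSeq also lists Fzd10 as an older name of Fzd2, and the table holds a row for each. The members and all lists were chosen with earlier results of these data known. Genes named by rule were the receptors, the PAF row, LRP5, LRP6, RNF43, ZNRF3, SMO and DVL1 to DVL3. The rule also took the 3 genes of smallest p in each of the 8 lists of genes that act with the receptors. It further took marker genes written first in some marker lists, and the 3 profiles nearest to each of the 2 receptors of highest mean. Named outside this rule were XIST, EIF2S3Y, Fzd10os, SFRP1 and further marker genes such as KIT and FCER1A. Alternatives are given in the closing section.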

Additional observations from a re-analysis of the deposited data

How the results depend on the processing

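The log2 difference of FZD10 lay between -2.96 and -2.56 over the alternatives that can alter it (pseudocounts, scalings, each library left out; filters, the variance trend and the replicate block leave a difference of means as it is), and that of FZD5 between 0.17 (without knockout library 1) and 0.50. FZD2, FZD4, FZD6, FZD7, FZD8 and FZD9 kept their sign in every alternative run, but single libraries moved some by over 1.5 times: FZD4 from -0.32 to -0.18 without control library 1, FZD7 from -0.27 to -0.15 without knockout library 1 and FZD9 from -0.25 to -0.16 without knockout library 2. FZD1, at -0.19, turned to 0.15 without knockout library 1 and was -0.54 without knockout library 2, -0.095 without control library 1 and -0.29 without control library 2. FZD3 had no alternative that tested it other than dropping the filter. The count of receptors lower in both knockout libraries, 8, was 7 with median centring (FZD9 then overlapped) or quantile scaling (FZD3), alternatives added after seeing the data. The log2 difference of the summed FPKM, -0.91, was -1.03 with libraries rescaled to a common FPKM total, which moved the median of all rows to -0.11, and -0.85 divided by the library median. The FZD10 share difference, -34.1 points, was -26.9 when FPKM was weighted by transcript length; on that weighting the share differences of FZD2 and FZD6 turned to -0.33 and -0.32 points.

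Rows called over the whole table numbered 10, 4 with no filter (more rows tested), 13 with the replicate block and 13 with the numbers crossed (added after seeing the data), and 0 to 8397 with a library left out: 0 with either control dropped, 8397 with the first knockout library dropped and 2833 with the second, the lone sample being assumed to vary like the rest. Whether the numbers pair the libraries is not stated in the labels. Deviations of same-numbered libraries correlated at -0.115 over rows, which cannot settle it. In this balanced design the block cannot alter a median or share. List medians changed sign for Wnt ligands without knockout library 2 (0.016; range over left-out libraries -0.35 to 0.016), receptor turnover with median centring (0.022) or quantile scaling (0.0082), and secreted antagonists with no filter (0.036). Among markers this held for epithelium rescaled to a common total (-0.064), with quantile scaling (-0.013) and without knockout library 2 (-0.043 to 0.15 over left-out libraries), macrophages (-0.25 to 0.83) and Paneth cells (-0.25 to 0.59). The cause was not tested.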
